A study of Sus scrofa with 16 samples.

Results

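Complex I is the NADH dehydrogenase of the mitochondrial respiratory chain, and 31 of the 25880 genes counted in pig pituitary carried names of its nuclear-encoded subunits and assembly factors. These genes were chosen by symbol, as every gene that the deposited comparison names NDUFA, NDUFB, NDUFC, NDUFS or NDUFV, the NDUFAF assembly factors included, with at least 10 counts in 8 or more pigs. All 31 names passed this count rule, and 29 of them had at least 10 counts in every pig. Whole pituitaries of 16 unrelated Złotnicka White gilts, a native Polish breed under conservation, were sequenced, where 8 gilts had a low feed conversion (LFC) and the other 8 a high one (HFC). The gilts came from different farms, were kept alike at 1 test station, are of day 180 by the labels, and no treatment is given for them. The labels hold the group as low or high FCR in a field named for another trait, shear force. The paper states that the test ended at a set body weight, so the shared day in the labels does not show equal age. By its trait measurements, the HFC gilts of this breed were longer on test, grew more slowly and had more fat at most sites. The comparison asks whether pituitary expression of complex I genes differs with the amount of feed a pig needs for its growth. Time on test, growth rate and fatness differ between the same groups, and their part was not tested.

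Complex I takes electrons from NADH, passes them along a flavin and a chain of iron-sulfur clusters to ubiquinone, and uses the energy to pump protons. It has a matrix arm, where NADH and ubiquinone bind, and a membrane arm that pumps. Its core subunits are conserved from bacteria, with the membrane arm core (the ND genes) encoded in mitochondrial DNA and the matrix arm core in the nucleus. Accessory subunits surround the core, and assembly factors put the modules together without staying in the finished enzyme. Hormone-secreting cells of the pituitary draw ATP from this chain for hormone synthesis and exocytosis.

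Library totals lay between 6010629 and 11794256 counts (median 7803047 in the LFC and 9027332 in the HFC pigs), of which the 31 genes took between 0.144% and 0.236%. Expression is given as CPM, the counts of a gene relative to the TMM-scaled size of its library, and log2 fold changes are HFC over LFC, so that values below 0 stand for lower expression in the HFC pigs. The tissue label held, since PRL (prolactin) had between 15501 and 112503 CPM, GH1 (growth hormone) between 23064 and 85944 CPM and CGA (the common subunit of the glycoprotein hormones) between 12038 and 53610 CPM over the 16 pigs. In bulk pituitary, fewer cells of a type and less RNA per cell cannot be told apart. HFC replicate 5 stood apart from the other HFC pigs, with the highest value of its group in 24 of the 31 genes and a value above the LFC median in 28. LFC replicate 4 stood apart in its own group, with the highest LFC value in 16 of the 31. Values that either pig moved by over 1.5 times are given with and without it. Both pigs were singled out by their values in these same genes, so the direction of such a move was known beforehand. The libraries kept no strand, and 16 of the 31 genes overlap another RefSeq gene on Sscrofa11.1, as NDUFS1 does with EEF1B2 and NDUFB10 with RPS2, so reads from shared bases could belong to either gene.

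Of the 31 complex I genes, 28 had a log2 fold change below 0, that is, lower fitted expression in the HFC pigs, against 52.1% of the 13621 genes tested. Their median log2 fold change was -0.24, with a range from -0.45 to 0.10, and the median of all genes tested was -0.01. This direction was not held by every model, as 17 of the 31 were below 0 with the slope of expression on gene span in each pig as a term, and 11 of the 31 with 1 surrogate variable, where the median was 0.02. The level of the complex I genes in a pig moved with that slope (Pearson's r -0.965) and with markers of red blood cells (0.742), both described further on, and their part in the difference between the groups was not tested. None of the 31 passed the test, set at a fold of 1.3 or more with a Benjamini-Hochberg (BH) adjusted p of 0.05 or less from edgeR, and neither did any other gene (0.0% of those tested). The smallest adjusted p among the 31 was 0.413. At a nominal p, that is before adjustment, of 0.05 or less there were 6, all lower in the HFC pigs, against 11.4% of all genes in either direction, 4.41% in that direction and 7.03% in the other. Of all genes at that nominal p, 61.4% were higher in the HFC pigs, and 46.0% with scaling by the library total. By that scaling 6 of the 31 were at that nominal p, all lower, against 10.2% of all genes, and 27 had a log2 fold change below 0, against 49.8%. DESeq2 also called 0 of the 31 (7 at a nominal p of 0.05 or less, against 9.98% of all genes; smallest adjusted p 0.295), with 0.216% of all genes called. Limma voom called 0 of them too (9 at a nominal p of 0.05 or less, against 18.6% of all genes, with a smallest adjusted p of 0.166), with 0.0% of all genes called. The paper, which used DESeq2 at the same thresholds, lists NDUFS6 and NDUFB7 among its differentially expressed genes for these pigs. It places both, with NDUFB5, under oxidative phosphorylation. Why its calls differ from those given here was not tested.

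In 26 of the 31 genes at least 6 of the 8 HFC pigs lay below the LFC median, against 30.4% of all genes tested. The ranges of the groups overlapped in all 31, and the share of all genes with such overlap is not given here. Without HFC replicate 5, 19 of the 31 had a nominal p of 0.05 or less, all lower in the HFC pigs, against 25.7% of all genes in either direction and 11.8% in that direction. The median log2 fold change was then -0.31 and the smallest adjusted p 0.0931, so that 0 of the 31 were called, as was 0.0% of all genes (edgeR, BH). Without LFC replicate 4 the median was -0.14 and the smallest adjusted p 0.670, and 3 of the 31 were at a nominal p of 0.05 or less against 7.40% of all genes. The count of 6 went down to 1 without LFC replicate 8, to 2 without LFC replicate 3, 5 or 6 or HFC replicate 1, 3, 4 or 7, and to 3 without LFC replicate 4 or HFC replicate 2. In these fits between 7.23% and 10.5% of all genes were at that nominal p. Over the 16 fits that each lacked 1 pig, between 26 and 29 of the 31 had a log2 fold change below 0. Of all genes, between 47.7% and 53.3% had one in these fits. In every such fit 26 of the 31 had one, and the share of all genes that did so is not given here. The fits share most of their pigs.

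**Figure D1:**
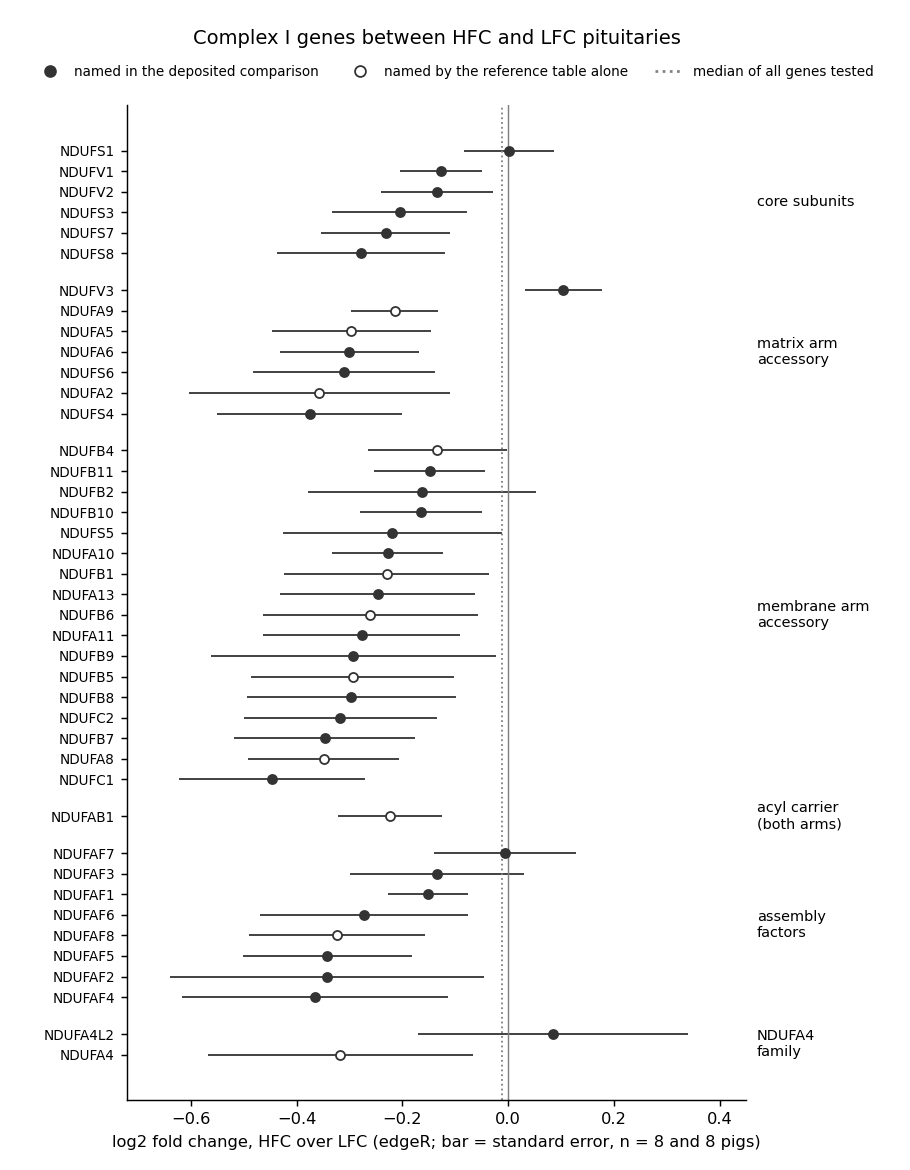
Log2 fold change of HFC over LFC (horizontal axis, edgeR) for 30 of the 31 complex I genes named in the deposited comparison (filled) and 11 named by the reference table alone (open), ordered by role; bars are standard errors and the dotted line is the median of all genes tested, -0.01. Of the filled points, 27 lie left of 0, and NDUFS1, NDUFV3 and NDUFA4L2 do not.

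The 7 nuclear core subunits of the matrix arm hold the path of the electrons. Of them, 6 had a log2 fold change below 0, against 52.1% of all genes tested, with a median of -0.20. NDUFS1 (ENSSSCG00000016127, chromosome 15, 109409768 to 109452435), the largest core subunit, holds several of the iron-sulfur clusters. It had between 118 and 143 CPM in the LFC pigs (median 125) and between 107 and 161 CPM in the HFC pigs (median 125). As many HFC pigs were above the LFC median as below it, 4 and 4. The log2 fold change was 0.0022 (SE 0.085), with a nominal p of 0.980 from edgeR. NDUFV1, which binds NADH and the flavin, had between 59.5 and 79.5 CPM (median 66.2) in the LFC pigs. In the HFC pigs NDUFV1 had between 53.3 and 69.2 CPM (median 62.7), and its log2 fold change was -0.13 (SE 0.08). The within-group SD on the log2(CPM + 1) scale was small for NDUFS1 (0.14) and NDUFV1 (0.13), against a median of 0.28 over all genes tested. It reached 0.33 in the core subunit NDUFS8, and the median over the 31 genes was also 0.33.

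NDUFS7, which carries the cluster that hands electrons to ubiquinone, had between 48.7 and 81.5 CPM in the LFC pigs (median 61.3) and between 44.7 and 73.7 CPM in the HFC pigs (median 50.2). NDUFS8, an iron-sulfur subunit on the same path, had between 49.7 and 108 CPM in the LFC pigs (median 69.4) and between 45.9 and 96.0 CPM in the HFC pigs (median 57.6). NDUFS3, a structural core subunit, had between 64.4 and 99.2 CPM in the LFC pigs (median 76.2) and between 55.2 and 101.1 CPM in the HFC pigs (median 63.0). In these 3 genes HFC replicate 5 gave the highest HFC value. NDUFV2, whose iron-sulfur cluster lies beside the flavin, had between 65.4 and 95.9 CPM in the LFC pigs (median 72.3) and between 55.9 and 91.3 CPM in the HFC pigs (median 67.4). The log2 fold changes were -0.23 for NDUFS7, -0.28 for NDUFS8, -0.20 for NDUFS3 and -0.13 for NDUFV2, with nominal p-values from edgeR of 0.0746, 0.0954, 0.125 and 0.223. Without HFC replicate 5 the nominal p was 0.0162 for NDUFS7, 0.0129 for NDUFS8, 0.0143 for NDUFS3 and 0.0542 for NDUFV2, with adjusted p-values from 0.115 to 0.203 (edgeR, BH). Leaving out 1 LFC pig brought NDUFS8 to -0.17 and NDUFV2 to -0.07 (without LFC replicate 4) and NDUFS7 to -0.15 (without LFC replicate 6).

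**Figure D2:**
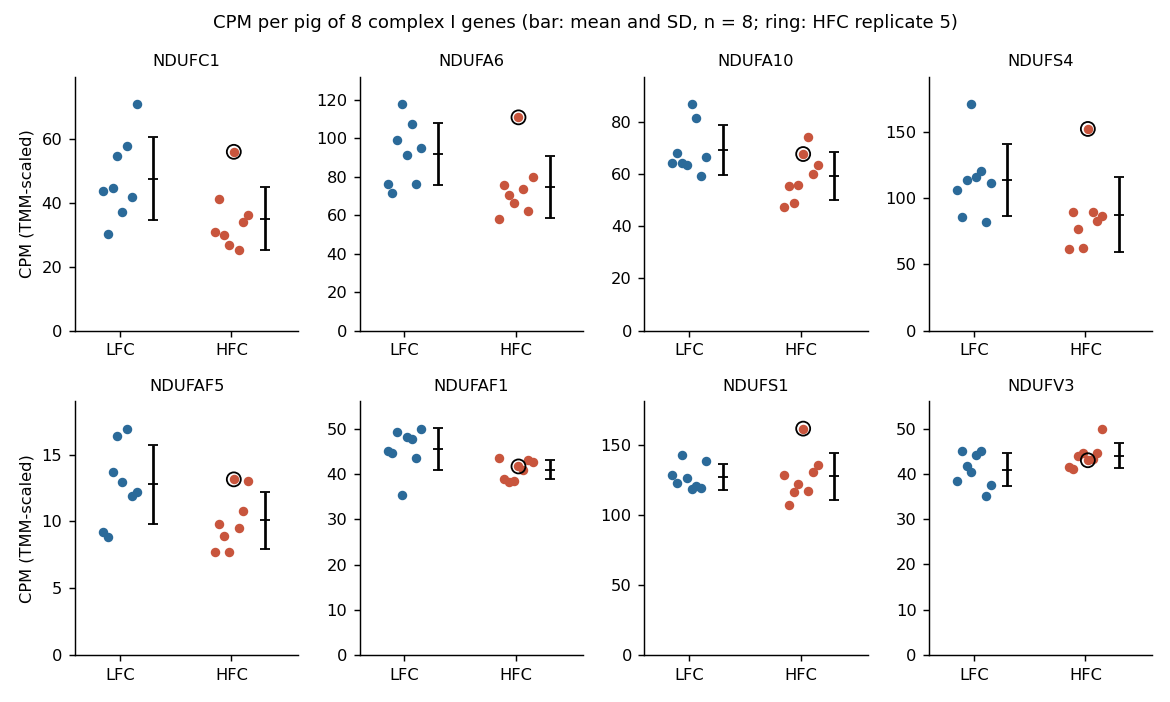
CPM (TMM-scaled) of 8 complex I genes in each LFC and HFC pig, with the mean and SD of each group (n = 8) and a ring around HFC replicate 5. The groups overlap in all 8 genes, and the ringed pig is the highest HFC pig in NDUFC1, NDUFA6, NDUFS4, NDUFAF5 and NDUFS1.

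Of the 4 accessory subunits of the matrix arm among the 31, NDUFS4, NDUFS6 and NDUFA6 had log2 fold changes below 0 and NDUFV3 had one above 0. NDUFA6 (ENSSSCG00000000045, chromosome 5, 6562051 to 6567647), a small subunit that anchors an acyl carrier protein, had between 71.5 and 118 CPM in the LFC pigs (median 93.1) and between 58.1 and 111 CPM in the HFC pigs (median 72.1). Its log2 fold change was -0.30 (SE 0.13; exact permutation test, two-sided on log2(CPM + 1), p = 0.0438). NDUFS4 (ENSSSCG00000016893, chromosome 16, 32874243 to 32988577), which stabilises the NADH-binding end and is a known Leigh syndrome gene, had between 82.2 and 171 CPM in the LFC pigs (median 113) and between 61.6 and 153 CPM in the HFC pigs (median 84.6). In both genes 7 of the 8 HFC pigs were below the LFC median. The log2 fold change of NDUFS4 was -0.38 (SE 0.17) and became -0.51 without HFC replicate 5 (exact permutation test, two-sided over all pigs, p = 0.0553). The zinc-binding subunit NDUFS6 had a log2 fold change of -0.31.

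NDUFV3 (ENSSSCG00000021991, chromosome 13, 206111353 to 206127738), a subunit of the NADH-binding end, has isoforms that differ between tissues. It had between 35.1 and 45.2 CPM in the LFC pigs (median 41.1) and between 41.0 and 50.0 CPM in the HFC pigs (median 43.6). Of the HFC pigs, 7 of 8 were above the LFC median. The log2 fold change was 0.10 (SE 0.07), with an adjusted p of 0.523 (edgeR, BH), and its within-group SD of 0.11 on the log2(CPM + 1) scale was the smallest of the 31 genes.

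All 12 accessory subunits of the membrane arm among the 31 had a log2 fold change below 0, against 52.1% of all genes tested. Their median was -0.26, with a range from -0.45 to -0.15. These genes are short, with a median span of 7504 bases, and 71.1% of all genes tested under 10 kb were below 0. NDUFC1 (ENSSSCG00000037953, chromosome 8, 87695260 to 87703643), a small membrane subunit, had between 30.2 and 70.9 CPM in the LFC pigs (median 44.2) and between 25.3 and 56.0 CPM in the HFC pigs (median 32.5). It was the only gene of the 31 with a fold change of at least 1.3, at a log2 fold change of -0.45 (SE 0.18; exact permutation test, two-sided, p = 0.0378). A fold change of that size in the same direction was found in 4.56% of all genes tested. NDUFA10 (ENSSSCG00000016349, chromosome 15, 138999156 to 139031897), which has the fold of a nucleoside kinase, had between 59.4 and 86.7 CPM in the LFC pigs (median 65.4) and between 47.4 and 74.2 CPM in the HFC pigs (median 57.8). For NDUFA10 the log2 fold change was -0.23 (SE 0.11; exact permutation test, two-sided, p = 0.0430).

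The other 10 genes of the membrane arm had nominal p-values above 0.05. NDUFB7 and NDUFS5, which are held by disulfide bonds on the intermembrane side, had log2 fold changes of -0.35 and -0.22. NDUFC2, NDUFB8, NDUFA11 and NDUFA13, the last also known as GRIM-19, had values of -0.32, -0.30, -0.28 and -0.25. NDUFB9 had a log2 fold change of -0.29 with the largest within-group SD of the 31 genes, 0.56 on the log2(CPM + 1) scale. Its highest values were 243 CPM in LFC replicate 4 and 207 CPM in HFC replicate 5, while the group medians were 98.2 and 81.5 CPM. NDUFB10, NDUFB2 and the X-linked NDUFB11 had log2 fold changes of -0.16, -0.16 and -0.15. For NDUFB2 only 5 of the 8 HFC pigs were below the LFC median.

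Several of these values rested on single pigs. Without HFC replicate 5 the values became -0.53 for NDUFB9, -0.39 for NDUFS5, -0.45 for NDUFB8, -0.44 for NDUFA11, -0.40 for NDUFA13 and -0.31 for NDUFB2. Without LFC replicate 4 they became -0.04 for NDUFB9, -0.08 for NDUFS5, -0.14 for NDUFB8, -0.15 for NDUFA11, -0.12 for NDUFA13, -0.21 for NDUFB7 and 0.02 for NDUFB2. Leaving out the 1 pig or the other moved these genes in opposite directions, as NDUFB7 was at -0.43 without HFC replicate 5. NDUFB10 and NDUFB11 were at -0.09 and -0.08 without LFC replicate 6, and NDUFB2 was at -0.085 without LFC replicate 6 and -0.09 without HFC replicate 1.

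The 7 assembly factors had log2 fold changes between -0.37 and -0.01, with a median of -0.27, where 52.1% of all genes tested were below 0. NDUFAF5 (ENSSSCG00000007076, chromosome 17, 22479852 to 22508781), which hydroxylates an arginine of NDUFS7, had between 8.87 and 17.0 CPM in the LFC pigs (median 12.6) and between 7.69 and 13.2 CPM in the HFC pigs (median 9.66). NDUFAF5 had a log2 fold change of -0.34 (SE 0.16; exact permutation test, two-sided, p = 0.0552). NDUFAF1, a member of the complex that builds the membrane arm around ND2, had between 35.5 and 50.1 CPM in the LFC pigs (median 46.4) and between 38.3 and 43.5 CPM in the HFC pigs (median 41.4). All 8 HFC pigs were below the LFC median, and the lowest value over all pigs was that of LFC replicate 4, at 35.5 CPM. The log2 fold change was -0.15 (SE 0.08; exact permutation test, two-sided, p = 0.0361), and its nominal and adjusted p from edgeR were 0.0587 and 0.438.

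NDUFAF7, a methyltransferase that acts early in assembly, had between 7.64 and 12.6 CPM in the LFC pigs (median 9.50) and between 8.09 and 12.3 CPM in the HFC pigs (median 9.50). Its log2 fold change was -0.01 (SE 0.13), and 4 HFC pigs lay on either side of the LFC median. NDUFAF3 and NDUFAF4, which act as a pair in the assembly of the ubiquinone module, had log2 fold changes of -0.135 and -0.37. NDUFAF4 had between 9 and 31 counts per pig, which limits its precision. NDUFAF2, a paralog of the subunit NDUFA12, had between 2.23 and 7.91 CPM in the LFC pigs (median 3.90) and between 1.78 and 7.70 CPM in the HFC pigs (median 3.03). The log2 fold changes of NDUFAF2 and NDUFAF6, the latter an early factor in the assembly around ND1, were -0.34 and -0.27. Without HFC replicate 5 NDUFAF2 was at -0.59 and NDUFAF3 at -0.23, and without LFC replicate 4 they were at -0.14 and -0.04. NDUFAF3 was also at -0.21 without LFC replicate 2, -0.05 without LFC replicate 6 and -0.09 without HFC replicate 1 or 8. NDUFAF4 was at -0.22 without LFC replicate 5 and NDUFAF6 at -0.15 without LFC replicate 6, while NDUFAF7 stayed between -0.06 and 0.07 with any 1 pig left out.

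NDUFA4L2 is a paralog of NDUFA4 known for its induction by hypoxia, and NDUFA4 itself is now counted as a subunit of cytochrome c oxidase. NDUFA4L2 (ENSSSCG00000027621, chromosome 5, 22540484 to 22548009) had between 0.847 and 5.31 CPM in the LFC pigs (median 4.07) and between 2.89 and 5.54 CPM in the HFC pigs (median 4.03). The log2 fold change was 0.08 (SE 0.25), and it was -0.05 without LFC replicate 8, which had the value of 0.847 CPM, and up to 0.18 with any other pig left out. NDUFA4, named by the reference table, had between 23.1 and 64.0 CPM in the LFC pigs (median 38.6) and between 17.3 and 57.0 CPM in the HFC pigs (median 28.3), with a log2 fold change of -0.32.

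A further 11 complex I names, which the deposited comparison does not name, came from a reference table of gene names and were kept apart from the 31. All 11 had a log2 fold change below 0, against 52.1% of all genes tested, with a median of -0.29 and a range from -0.36 to -0.13. Against 4.41% of all genes in that direction, 3 of the 11 had a nominal p of 0.05 or less. These were NDUFA9, a matrix arm subunit near the ubiquinone site, NDUFA8 of the intermembrane side, and NDUFAB1, the acyl carrier protein found in both arms. NDUFA9 had between 50.6 and 64.3 CPM in the LFC pigs (median 58.4) and between 41.8 and 57.3 CPM in the HFC pigs (median 49.1), with all 8 HFC pigs below the LFC median. Its log2 fold change was -0.21 (SE 0.08; exact permutation test, two-sided, p = 0.0115). The log2 fold changes of NDUFA8 and NDUFAB1 were -0.35 and -0.22, and the smallest adjusted p of the 11 was 0.413 (edgeR, BH).

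**Figure D3:**
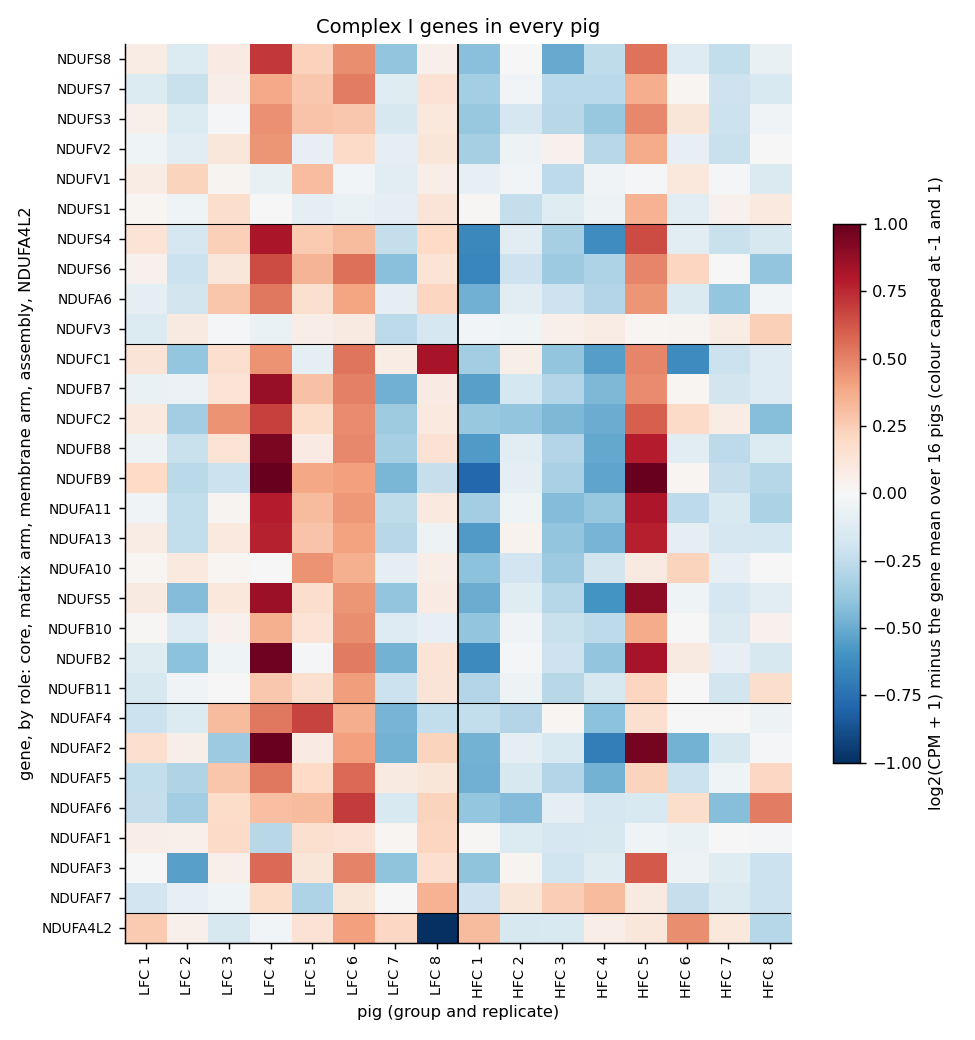
Log2(CPM + 1) of 30 of the 31 complex I genes (rows, by role) in each of the 16 pigs (columns), minus the mean of the gene over all pigs, with red for values above and blue for values below it and the colour capped at -1 and 1. LFC replicates 4 and 6 and HFC replicate 5 are above the gene mean in 26, 29 and 28 of all 31 genes, and HFC replicates 1 and 4 in 3 each.

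Most of the complex I genes varied together from pig to pig. The Pearson's r between pairs of the 31 genes, on log2(CPM + 1), had a median of 0.695 over the 465 pairs across the 16 pigs, with 0.689 within the LFC and 0.679 within the HFC pigs. All values of a pig come from the same library, so these are descriptions. Against the median of the other 30 genes, 25 genes had an r between 0.564 and 0.970 across the 16 pigs. The 6 with a lower r were NDUFS1 (0.366), NDUFV1 (0.226), NDUFAF7 (0.148), NDUFAF1 (0.105), NDUFV3 (-0.05) and NDUFA4L2 (-0.06). The membrane arm accessory subunits had a median r between pairs of 0.863, the core subunits 0.441 and the assembly factors 0.315. The spread followed the same order in part, as the median within-group SD on the log2(CPM + 1) scale was 0.38 in the membrane arm, 0.32 in the assembly factors and 0.21 in the core.

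The pigs differed in the median over the 31 genes of the deviation from the gene mean, on the log2(CPM + 1) scale. It lay between -0.22 and 0.52 in the LFC pigs (0.12 ± 0.25, SD, n = 8) and between -0.39 and 0.44 in the HFC pigs (-0.12 ± 0.25, SD, n = 8). The highest values were 0.52 in LFC replicate 4, 0.44 in HFC replicate 5 and 0.41 in LFC replicate 6. Without HFC replicate 5 the HFC pigs lay between -0.39 and -0.05, and 2 of the 8 LFC pigs, replicates 2 and 7, were within that range. Across the 16 pigs this median gave Pearson's r 0.973 and Spearman's rho 0.974 with the same median over the 11 further genes. For the assembly factors against the subunits, the Pearson's r was 0.894 and the Spearman's rho 0.832.

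The same median moved with the slope of expression on gene length in each pig, measured over the 10890 tested genes whose span in the genome was known. The complex I genes are short, with a median span of 10554 bases and a range from 2280 to 180343, against a median of 29627 over those 10890 genes. The slope lay between -0.08 and 0.04 log2 units per doubling of span in the LFC pigs and between -0.06 and 0.06 in the HFC pigs, and was lowest in LFC replicates 6 and 4 and HFC replicate 5. Across the 16 pigs the slope and the complex I median gave Pearson's r -0.965 and Spearman's rho -0.950. Taken by group, r was -0.939 over the LFC and -0.990 over the HFC pigs, without the 2 pigs with the slopes farthest from the median it was -0.947, and over the 13 pigs other than those 3 it was -0.904.

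**Figure D4:**
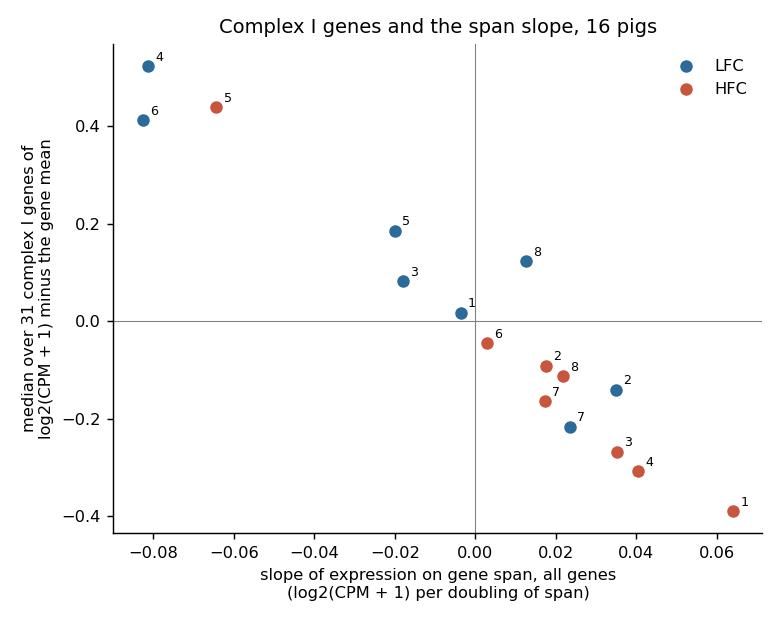
Median deviation of the 31 complex I genes from their means (vertical axis, log2(CPM + 1)) against the slope of expression on gene span (horizontal axis, log2 units per doubling of span) in each pig, numbered by replicate. The pigs lie along a falling line in both groups (Pearson's r -0.965), with LFC 4, LFC 6 and HFC 5 at its upper end and HFC 1 at its lower end.

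Among all genes tested with a span under 10 kb, 71.1% had a log2 fold change below 0, with a median of -0.11, and among the complex I genes of that class it was 14 of 15, with a median of -0.29. From 10 to 30 kb the values were 58.7% and -0.04 for all genes and 9 of 10 and -0.22 for complex I. Over 30 kb they were 43.3% and 0.04 for all genes and 5 of 6 and -0.25 for complex I. With the trend on span removed from each pig, 28 of the 31 genes had a log2 fold change below 0, with a median of -0.20, against 52.2% of all genes. With the slope of each pig as a term in the model, 17 of the 31 had a log2 fold change below 0 against 49.9% of all genes, the median was -0.03, and 2 had a nominal p of 0.05 or less against 4.77% of all genes, NDUFAF1 lower at -0.17 and NDUFB2 higher at 0.20 in the HFC pigs. Without the 3 pigs of the lowest slopes, a choice made after the data were seen, 28 of the 31 had a log2 fold change below 0, with a median of -0.22, and 8 had a nominal p of 0.05 or less against 14.4% of all genes, where 50.3% had a log2 fold change below 0. With 1 surrogate variable in the model, 11 of the 31 had a log2 fold change below 0 against 50.7% of all genes, the median was 0.02, and 4 had a nominal p of 0.05 or less against 4.57% of all genes. Of these, NDUFAF1 was lower in the HFC pigs at -0.17, while NDUFS5, NDUFAF3 and NDUFB2 were higher at 0.18, 0.20 and 0.29.

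Markers of red blood cells moved with the complex I genes. Of 5 listed, HBB, HBM and ALAS2 were tested, and their summed level lay between 278 and 1432 CPM in the LFC pigs (median 450) and between 63.4 and 1050 CPM in the HFC pigs (median 186), highest in LFC replicate 4 and HFC replicate 5. Their mean log2(CPM + 1) gave Pearson's r 0.742 and Spearman's rho 0.729 with the complex I median across the 16 pigs, and 0.441 over the 13 pigs other than LFC 4, LFC 6 and HFC 5. For gonadotrophs and thyrotrophs, CGA, FSHB, TSHB and NR5A1 were tested of 6 listed, with a summed level between 19823 and 61898 CPM in the LFC pigs and between 13424 and 44380 CPM in the HFC pigs. Their r and rho with the complex I median were 0.695 and 0.665, and r was 0.501 over the same 13 pigs. None of the tested markers of either list was at 0 in any pig, and the part of these cells in the difference was not tested. For the 4 tested markers of posterior lobe glia, whose summed level lay between 121 and 5807 CPM in the LFC pigs and between 108 and 3157 CPM in the HFC pigs, r was 0.106 and rho 0.350. For markers of fibroblasts r was -0.490 (-0.904 within the LFC and -0.177 within the HFC pigs), of endothelium -0.423, of lactotrophs and somatotrophs -0.308 and of macrophages 0.212. Of 5 listed markers of corticotrophs and melanotrophs 4 were tested, and POMC was not among these. All 4 had a log2 fold change below 0 (median -0.69), against 52.1% of all genes tested. Of these 4, 2 were at a nominal p of 0.05 or less, against 4.41% of all genes in that direction. Their r with the complex I median was -0.03.

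The ND genes, the part of complex I encoded in mitochondrial DNA, were counted without regard to strand, and genes that overlap there can share reads. All 7 had a log2 fold change above 0, with a median of 0.46 and a range from 0.05 to 1.02, where 52.1% of all genes tested were below 0. A nominal p of 0.05 or less was found in 4 of the 7, against 7.03% of all genes in that direction and 11.4% in either. None of the 7 had an adjusted p below 0.372 (edgeR, BH). The mean log2(CPM + 1) of the 7 ND genes exceeded that of the 23 nuclear subunit genes by between 1.89 and 3.27 in the LFC pigs (2.69 ± 0.53, SD, n = 8) and by between 2.87 and 3.92 in the HFC pigs (3.46 ± 0.38, SD, n = 8). The lowest differences were those of LFC replicates 4 and 6, at 1.89 and 1.97, and the groups overlapped. Without HFC replicate 5 the mean of the HFC pigs was 3.51. Across the 16 pigs the ND and the nuclear means gave Pearson's r -0.349 and Spearman's rho -0.312, but r was -0.462 within the LFC and 0.219 within the HFC pigs.

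**Figure D5:**
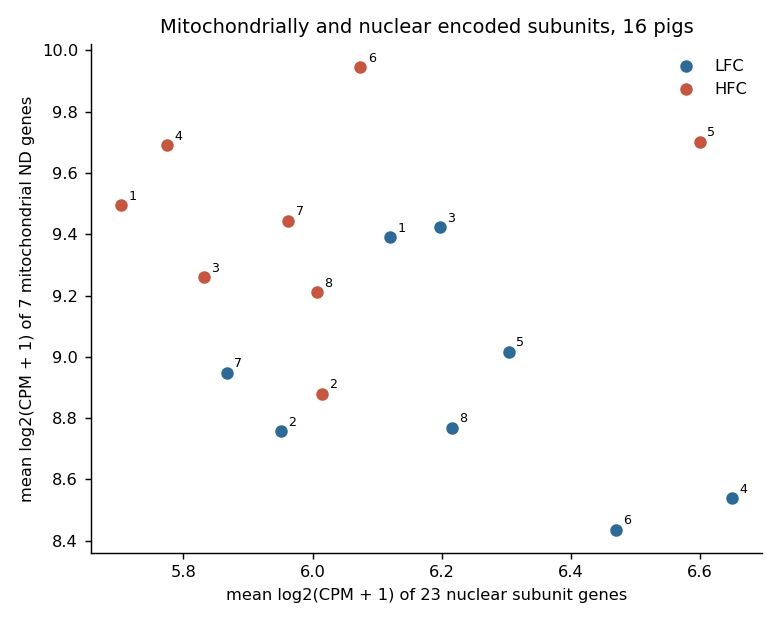
Mean log2(CPM + 1) of 7 mitochondrial ND genes (vertical axis) against that of 23 nuclear complex I subunit genes (horizontal axis) in each LFC and HFC pig, numbered by replicate. Most HFC pigs lie to the upper left and LFC 4 and LFC 6 to the lower right, while HFC 5 is high on both axes.

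Other nuclear genes of the pathway were taken from lists of names. Over all genes tested, 52.1% had a log2 fold change below 0, 11.4% a nominal p of 0.05 or less, and 4.41% both. Of 14 tested assembly genes of complex I without an NDUF name, 11 had a log2 fold change below 0, with a median of -0.19, and 2 had a nominal p of 0.05 or less. These were ECSIT, a partner of NDUFAF1, at -0.21, and CHCHD4, which oxidises cysteines in the intermembrane space, at -0.25. The highest value was that of TIMMDC1, a membrane arm assembly factor, at 0.05. Of complex II, succinate dehydrogenase, all 7 tested genes had a log2 fold change below 0, with a median of -0.25 and a range from -0.47 for the assembly factor SDHAF3 to -0.07 for the catalytic subunit SDHA. SDHAF3 was the only one of the 7 with a nominal p of 0.05 or less.

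Of 10 genes that regulate mitochondrial gene expression, 7 had a log2 fold change below 0, against 52.1% of all genes tested. A nominal p of 0.05 or less was found in 2 of the 10, in opposite directions, against 11.4% of all genes. PPRC1, a coactivator of the PGC-1 family, had between 16.7 and 25.9 CPM in the LFC pigs (median 18.5) and between 18.04 and 36.6 CPM in the HFC pigs (median 28.9), with a log2 fold change of 0.51 (SE 0.13). ESRRA, an orphan nuclear receptor that acts with PGC-1 coactivators on respiratory chain genes, had between 25.9 and 38.9 CPM in the LFC pigs (median 30.02) and between 19.3 and 32.7 CPM in the HFC pigs (median 24.4), with a log2 fold change of -0.33 (SE 0.12). NRF1, a factor that binds promoters of many respiratory chain genes, had a log2 fold change of -0.0022. The adjusted p-values of PPRC1 and ESRRA were 0.381 and 0.413 (edgeR, BH). Of 8 genes of the mitochondrial membranes and protein import, 7 had a log2 fold change below 0, with a median of -0.09 and a range from -0.26 for VDAC3, an outer membrane channel, to 0.02 for TOMM40, the pore of protein import, and 0 had a nominal p of 0.05 or less in edgeR.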

How the data were processed

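The authors isolated RNA from whole pituitaries, made TruSeq libraries without strand, trimmed the reads and mapped these to Sscrofa11.1, per the labels with STAR and RSEM among the tools. They deposited unnormalized whole-number counts per gene and pig. Their deposited comparison also holds means of scaled counts (a signal), a ratio, its log2 value and p-values with adjusted p-values, none of which was used. From it came the symbols (9550 genes) and positions. The reference name table named 5875 further genes. Groups came from the labels, and each sample is 1 pig.

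In R 4.3.3, edgeR 4.0.16 was run on all pigs with TMM scaling, its expression filter (13621 genes, all 31 complex I genes included), quasi-likelihood F tests and p-values adjusted by Benjamini-Hochberg (BH) over all genes tested. Standard errors were taken from the F statistic. Exact permutation tests used all 12870 splits of the 16 pigs, on log2(CPM + 1). The alternatives were DESeq2 1.42.0, limma voom (limma 3.58.1), RLE, upper-quartile and total library scaling, 2 other filters, robust estimation, a replicate block, corrections for gene span, 1 surrogate variable (sva 3.50.0), a pseudocount of 0.1 and each pig left out. The tests were tested on simulated data. Python 3.11.15 was used for the rest.

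The members and lists were chosen with earlier results of these data known. Values over the pigs were given for the core subunits, for genes at a nominal p of 0.05 or less or with the smallest p in each direction, and for the NDUFA4 and NDUFAF2 paralogs. The values of NDUFAF1, NDUFAF7 and NDUFA9 and those of NDUFB9 were added after they were seen. Exonic lengths were not used here, so levels were not compared between genes, and no sequences were used. The values of 1 of the 31 genes are not reported here, and counts and medians include it.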

Additional observations from a re-analysis of the deposited data

Results flagged for a closer look

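Among the 62 groups of 8 values, 1 per complex I gene and feed conversion group, 11 held a pig whose distance to the next pig was large against the range of the group (Dixon's criterion on log2(CPM + 1)), while chance flags about 1 in 20 groups. HFC replicate 5 was the highest HFC pig in 8 of them. Its values were 171 CPM for NDUFS5, 207 CPM for NDUFB9, 173 CPM for NDUFB8, 61.3 CPM for NDUFAF3, 162 CPM for NDUFA13, 153 CPM for NDUFS4, 61.6 CPM for NDUFA11 and 7.70 CPM for NDUFAF2, where the next HFC pig had 88.7, 99.3, 92.8, 40.4, 96.7, 89.7, 33.7 and 3.43 CPM. The genes of a pig share a library, so these are not separate observations, and the share of groups flagged over all genes is not given. The others were NDUFAF1 in LFC replicate 4, low at 35.5 CPM, NDUFV3 in HFC replicate 8, high at 50.0 CPM, and NDUFA4L2 in LFC replicate 8, low at 0.847 CPM.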

How the results depend on the processing

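In every alternative 0 of the 31 complex I genes passed the test, and 27 to 29 of them had a log2 fold change below 0 under the other scalings, no filter, robust estimation, DESeq2, limma voom and removal of the trend on span (26 of 29 genes with 10 counts or more in every pig). In these fits between 49.1% and 54.5% of all genes were below 0. With the span slope of each pig as a term, 17 of the 31 had a log2 fold change below 0 and 2 had a nominal p of 0.05 or less. With 1 surrogate variable 11 had one and the median was 0.0191. Both terms are computed from the same libraries, and the cause was not tested. Leaving out each pig in turn gave between 1 and 19 genes at a nominal p of 0.05 or less, against between 7.23% and 25.7% of all genes. Between 26 and 29 had a log2 fold change below 0, against between 47.7% and 53.3% of all genes. The median lay between -0.31 and -0.14. With a pseudocount of 0.1 in place of 1, the exact permutation test gave p of 0.05 or less in 5 genes, as many as before. No share over all genes is given beside these counts of the exact test.

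The replicate numbers follow the order of the samples within each group, so a shared number states no pairing. Pigs of the same number correlated between -0.343 and 0.374 (median -0.0404), and 0 of 8 LFC pigs correlated best with their own number. The replicate block gave 5 genes at a nominal p of 0.05 or less, against 10.3% of all genes, and turned NDUFS1 to -0.0045.

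Genes near 0 changed sign. NDUFS1 was at -0.0492 under limma voom, -0.0124 under upper-quartile scaling, -0.0017 with the span trend removed and -0.0596 without the 3 pigs of lowest slope. NDUFAF7 was at 0.0328 under limma voom, 0.0102 under library total scaling, 0.0118 with 10 counts in every pig, 0.0131 with the span trend removed and 0.0397 without the 3 pigs. With single pigs left out NDUFS1 ranged from -0.0293 to 0.0539, NDUFAF7 from -0.0618 to 0.0733, NDUFB2 from -0.31 to 0.0188 and NDUFA4L2 from -0.0475 to 0.18.

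With the span slope as a term, log2 fold changes turned to 0.10 for NDUFS5, 0.12 for NDUFB9, 0.0108 for NDUFB8, 0.017 for NDUFAF7, 0.14 for NDUFAF3, 0.0341 for NDUFA13, 0.0003 for NDUFA11, 0.0018 for NDUFAF2, 0.0164 for NDUFB10, 0.20 for NDUFB2 and 0.0017 for NDUFV2. With 1 surrogate variable they turned to 0.18 for NDUFS5, 0.19 for NDUFB9, 0.0901 for NDUFB8, 0.0422 for NDUFAF7, 0.20 for NDUFAF3, 0.0917 for NDUFA13, 0.0159 for NDUFS6, 0.0006 for NDUFS7, 0.0681 for NDUFA11, 0.10 for NDUFAF2, 0.0462 for NDUFB10, 0.0097 for NDUFS3, 0.29 for NDUFB2, 0.0166 for NDUFB11, 0.0267 for NDUFS8, 0.0418 for NDUFV2 and 0.0191 for NDUFC2. Depth limits NDUFAF4 and NDUFA4L2, with 9 and 7 counts in their lowest pigs.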
